A study of Mus musculus with 2 samples.

Results

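The genes described here encode the nuclear-encoded subunits of the mitochondrial respiratory chain and ATP synthase, chosen by name. A probe set belonged to them when its single gene symbol in the array's annotation began with Nduf, Uqcr, Atp5 or Cox4 to Cox8, or was Sdha, Sdhb, Sdhc, Sdhd or Cyc1. This gave 180 of 45101 probe sets, which stand for 91 of the 18194 genes with a single symbol. They fall into complex I (34 genes), complex II (4), complex III (9), complex IV (18) and complex V (17), and the remaining 9 share the name but are not subunits. Those 9 are the complex I assembly factors Ndufaf1 to Ndufaf8 and Ndufa4l2, a paralog of Ndufa4. Ndufa4, named after complex I, is counted with complex IV, where its protein is now placed. A further 10 probe sets with several symbols, at least 1 of them matching, were left out by the rule.

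The respiratory chain sits in the inner mitochondrial membrane. Complex I takes electrons from NADH and complex II from succinate, ubiquinone carries them to complex III, and cytochrome c carries them on to complex IV, which passes them to oxygen. Complexes I, III and IV pump protons as they do so, and complex V, the ATP synthase, lets protons flow back to make ATP. Apart from complex II, each complex also contains subunits encoded in the mitochondrial genome. In the eye, the ciliary epithelium that both cells are assigned to later secretes aqueous humour, an energy-consuming transport, and photoreceptors are known for dense mitochondria.

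The data are 2 single-cell expression profiles, 1 from embryonic day 12.5 (E12.5, called the embryonic cell below) and 1 from postnatal day 0 (P0, called the newborn cell). Both cells came from dissociated retina of CD1 mice, an outbred albino strain, with no treatment or genetic change named, and both are labelled ciliary body. That label was given afterwards, from each cell's own expression. Each was amplified by 35 cycles of PCR from oligo dT primed cDNA and read on its own Affymetrix array, and this number of arrays limits the precision. As each age has 1 cell, nothing replicates it, no test between ages can be made, and every difference below is between these 2 cells.

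Signals are MAS5 values on a linear scale. A gene counts as above background where its signal exceeded a limit set for each array, 483 for the embryonic cell and 365 for the newborn cell, the 99th percentile of 221 probe sets for families such as odorant receptors. Where a gene has several probe sets, the one brightest on average over both cells (mean log2 signal) stands for it. Signals of different probe sets depend on their own probes, so levels are set against each other only between the cells, never between genes. Of the ciliary margin markers, 8 of 13 were above the limit in the embryonic cell and 7 in the newborn cell, and of the ciliary epithelium markers 3 and 5 of 5. Over all genes 26.9% and 28.1% were above these limits. The margin markers Cdon, Wfdc1, Otx1 and Gja1 were at least 4-fold higher in the embryonic cell, and 0 were so in the newborn cell. Of the epithelium markers, Mfap2 and Cp were at least 4-fold higher in the newborn cell and 0 in the embryonic cell. Over all genes 7.10% and 6.72% were that much higher in the embryonic and the newborn cell. All 6 measured retinal progenitor markers were above the limit in both cells. Pax6 was 15.4-fold higher in the embryonic cell (16320 and 1059) and Lhx2 7.28-fold higher in the newborn cell (2303 and 16758). No marker of photoreceptors (of 4), ganglion cells (of 3), pigment epithelium (of 5), red cells (of 2), microglia (of 4), endothelium (of 3), lens (of 4) or muscle (of 4) was above it in either cell. Of 4 mesenchymal markers, Col1a2 (2653) and Pdgfra (3088) were above the limit in the newborn cell and none in the embryonic cell; the summed signal of these markers was 231 in the embryonic cell and 5859 in the newborn cell, and their part in the results was not tested. The ratio of the 3' to the 5' control probe set was 6.17 in the embryonic cell and 2.20 in the newborn cell for beta-actin, and 1.06 and 1.43 for Gapdh. The 3 control probe sets for 18S ribosomal RNA gave 7813 to 10783 in the embryonic cell and 258 to 1696 in the newborn cell.

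Promoter sequence was looked at because nuclear respiratory factor 1 (NRF1) and ETS-type factors such as GABPA are known regulators of respiratory chain genes. Of the 91 genes, 74 had a promoter in a RefSeq table of assembly GRCm38.p6, and the 250 bases before each start were searched on both strands for the NRF1 motif (GCGCA, any 1 base, then GCGC, or its reverse complement) and the ETS motif CCGGAAGT. The NRF1 motif was held by 12 of the 74 (16.2%), against 5.84% of 17491 protein-coding genes, and the ETS motif by 3 (4.05%), against 4.26%. Complex V held the NRF1 motif in 4 of 15 promoters (Atp5c1, Atp5g2, Atp5h and Atp5k), complex II in 2 of 3 (Sdha and Sdhd), complex I in 4 of 31, complex IV in 1 of 13 and complex III in 0 of 5. Of the 8 promoters of genes that differed by 4-fold between the cells, 1 held it. A match is a description of the letters and not a bound site. The 4 stretches below are the 200 bases before the start, 5′ to 3′ on the gene's strand, with NRF1 and ETS motifs in capitals. Ndufa8 and Cox5a are shown because each was bright in 1 cell and below the limit in the other, in opposite directions; Atp5h because it was the single member with both motifs; and Sdha because it held 3 NRF1 motifs, beginning 98, 55 and 10 bases before the start. They lie at chr2:36049339-36049538 (minus strand), chr9:57521032-57521231 (plus), chr11:115419920-115420119 (minus) and chr13:74350241-74350440 (minus) of GRCm38.p6. No 2 of the printed matches overlap. Ndufb4, not shown, also held 3 NRF1 motifs, beginning 191, 79 and 22 bases before the start.
Ndufa8: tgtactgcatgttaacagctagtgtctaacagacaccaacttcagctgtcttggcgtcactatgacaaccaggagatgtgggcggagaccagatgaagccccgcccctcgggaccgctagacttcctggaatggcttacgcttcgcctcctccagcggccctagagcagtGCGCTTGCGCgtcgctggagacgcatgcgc
Cox5a: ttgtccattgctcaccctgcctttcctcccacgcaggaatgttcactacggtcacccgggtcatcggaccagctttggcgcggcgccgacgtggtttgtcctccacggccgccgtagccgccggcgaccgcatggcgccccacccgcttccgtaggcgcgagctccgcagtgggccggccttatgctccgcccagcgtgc
Atp5h: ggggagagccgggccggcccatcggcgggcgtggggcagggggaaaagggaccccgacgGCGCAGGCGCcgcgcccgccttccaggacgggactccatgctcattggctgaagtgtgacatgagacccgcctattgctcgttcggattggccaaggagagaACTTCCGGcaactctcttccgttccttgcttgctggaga
Sdha: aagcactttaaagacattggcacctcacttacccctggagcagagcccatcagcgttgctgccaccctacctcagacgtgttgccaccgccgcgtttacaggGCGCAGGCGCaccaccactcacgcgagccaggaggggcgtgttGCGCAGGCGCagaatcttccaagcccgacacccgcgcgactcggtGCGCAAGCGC
The match in Ndufa8 begins 30 bases before the start and the 200 bases of Cox5a hold neither motif. The NRF1 motif of Atp5h begins 141 bases before the start and the ETS motif, here as its reverse complement, 39 bases before it.

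Most respiratory chain genes were above background in both cells. Of the 91 genes, 75 (82.4%) exceeded the limit in the embryonic cell and 70 (76.9%) in the newborn cell, where 26.9% and 28.1% of all genes did. Both limits were exceeded by 69 genes, against 17.1% of all genes. A total of 6 were above the limit in the embryonic cell only and 1 in the newborn cell only, against 9.74% and 11.0% of all genes. The other 15 were above it in neither cell, where 62.1% of all genes lay. All 17 genes of complex V and all 9 of complex III were above the limit in both cells, as were 30 of 34 of complex I and 3 of 4 of complex II. Complex IV had 10 of 18 in both, and the other 8 were Cox5a and 7 isoforms known from particular tissues. None of the 9 name-sharing genes was above the limit in the newborn cell.

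**Figure D1:**
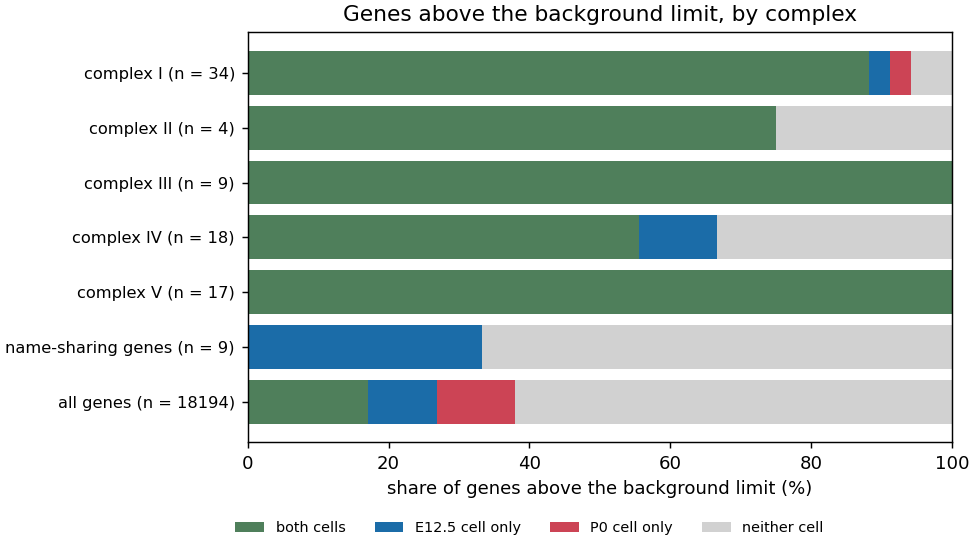
Share of genes (%) above the background limit in both cells, in 1 cell or in neither, for each complex, for the genes sharing the name and for all genes with a single symbol. Complexes III and V lie wholly in the class above the limit in both cells, while the 9 name-sharing genes have none there.

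Differences of 4-fold or more between the cells were counted beside those of all genes. With each signal first raised to its array's limit, 7 of the 91 genes (7.69%) reached 4-fold in favour of the embryonic cell, as did 7.10% of all genes, and 3 (3.30%) reached it in the newborn cell's favour, as did 6.72% of all genes. The first share is close to that of all genes, but the shares rest on unlike bases. A gene below the limit in both cells cannot be called, and 62.1% of all genes but 15 of the 91 members lay there. The genes higher in the embryonic cell were Cox5a, Cox6b2, Ndufab1, Ndufb7, Ndufa3, Ndufaf2 and Ndufaf5, and those higher in the newborn cell were Ndufa8, Cyc1 and Ndufb9. Ndufaf2 and Ndufaf5 are not subunits, and the 82 subunits alone had 5 (6.1%) and 3 (3.66%) calls. In 6 of the 10 called genes the dimmer signal fell under its array's limit, which makes the fold a lower bound. Scaling the arrays to the hybridisation spike-ins instead shifted the median log2 ratio of all genes above both limits from -0.10 to -0.96 and changed these counts to 11 and 1, and the share of calls that were higher in the newborn cell fell from 48.6% to 18.0% over all genes.

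Bright members were seldom missing from the other cell. Of the 58 members with a signal over 4000 in the embryonic cell, 3 were below the limit in the newborn cell (Cox5a, Cox6b2 and Ndufaf2), against 17.1% of the 1467 genes of any kind that bright. Of the 58 members over 4000 in the newborn cell, Ndufa8 was the one below the limit in the embryonic cell, against 22.0% of 1521 genes. Reverse transcription from 1 cell can lose a transcript, so a signal under the limit means not detected, not absent; whether such loss took part in these values was not tested.

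Complex I has a peripheral arm, whose N module binds NADH and whose Q module hands electrons to ubiquinone, and a membrane arm that pumps protons. All 7 measured N module genes were above the limit in both cells and, by the probe set that stands for each, within 2-fold. Ndufv1, which encodes the subunit that binds NADH and flavin, gave 2815 in the embryonic cell and 4446 in the newborn cell. Ndufv2, an iron-sulfur subunit, gave 6591 and 5879. Ndufs1, the largest iron-sulfur subunit, gave 3307 and 3061. By the probe sets that stand for them, the 3 catalytic genes had nearly level or mildly unequal signals in the cells. Their log2 ratios of newborn over embryonic were 0.66, -0.16 and -0.11. Ndufs4, an accessory gene known from mouse models of Leigh-like disease, gave 7422 and 8514, Ndufv3 gave 7152 and 4908, Ndufa2 gave 6362 and 5130, and Ndufa12 gave 20178 and 10341, with 13827 and 11813 by another of its probe sets.

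The Q module was likewise above the limit in both cells for its 4 measured genes. Ndufs3 gave 7541 in the embryonic cell and 10312 in the newborn cell. Ndufs7, which holds the last iron-sulfur cluster before ubiquinone, gave 11117 and 18494. Ndufs8, a further iron-sulfur subunit, gave 12903 and 6358, a 2.03-fold higher signal in the embryonic cell, and its dimmest probe set above a limit (1220 and 322) was at least 3.35-fold higher there. Ndufa5 gave 6323 and 9021. Over the module the log2 ratio ran from -1.02 to 0.73, with Ndufs8 the one gene lower in the newborn cell.

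The 5 complex I genes that reached 4-fold lie among the 23 of the membrane arm and the remaining accessory subunits. Of these, 3 (13.0%) had the embryonic cell brighter and 2 (8.7%) the newborn cell, beside 7.10% and 6.72% of all genes. Their log2 ratios, for the 19 genes above both limits, had an SD over genes of 1.42, against 0.52 over the 7 N module genes and 1.33 over all such genes.

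Ndufab1, the mitochondrial acyl carrier protein, which also serves fatty acid synthesis, had a signal of 2937 in the embryonic cell and 12.3 in the newborn cell. It was at least 8.06-fold higher in the embryonic cell. A second probe set pointed the same way (1210 and 20.7), at least 3.32-fold and so short of the call. The other 3 probe sets were below the limit in both cells. With signals averaged over all 5 probe sets neither cell was above its limit and the call was lost.

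Ndufb7, a membrane arm subunit on the outer face of the inner membrane, gave 3911 in the embryonic cell and 402 in the newborn cell, just over the limit there, so that it was 9.73-fold higher in the embryonic cell. Its second probe set gave 3937 and 11.0. Ndufa3 gave 8813 and 1495, a 5.89-fold higher signal in the embryonic cell. One further probe set of Ndufa3 was also at least 4-fold higher there, and another, 723 against 81.5, had the same direction. All 3 genes were thus brighter in the embryonic cell with every probe set that was above a limit.

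Ndufa8, a subunit with twin cysteine motifs imported into the intermembrane space, went the other way, with 146 in the embryonic cell and 7021 in the newborn cell. It was at least 14.5-fold higher in the newborn cell and has 1 probe set. Ndufb9 gave 3298 and 15442, a 4.68-fold higher signal in the newborn cell, and a second probe set gave 2904 and 12296. The remaining probe set of Ndufb9 was below both limits, and with the mean over the 3 the log2 ratio dropped to 0.29.

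Other membrane arm genes lay between these. Ndufs5 (1428 in the embryonic cell and 4492 in the newborn cell), Ndufb2 (3571 and 9482) and Ndufb3 (2766 and 5707) were 3.15-fold, 2.66-fold and 2.06-fold higher in the newborn cell. Another probe set of Ndufb2 gave 1317 and 5101, 3.87-fold higher in the newborn cell. Ndufa9 (8184 and 2443), Ndufc1 (8336 and 2960) and Ndufb11 (8321 and 4116) were 3.35-fold, 2.82-fold and 2.02-fold higher in the embryonic cell. The other probe set of Ndufc1 gave 6054 and 1393, 4.34-fold higher there and so past the call that the brighter one missed. The rest were within 2-fold: Ndufb8 gave 4960 and 5077, Ndufc2 gave 11614 and 10862, and Ndufb10 gave 5279 and 4526. Ndufb5, Ndufa7, Ndufa13 and Ndufa1 had the higher signal in the embryonic cell, and Ndufb6, Ndufa10 and Ndufa6 in the newborn cell. Ndufb1 (119 and 11.2) and Ndufb4 (86.1 and 21.3) were above the limit in neither cell, each by its 1 probe set with a single symbol. One probe set does not show that these genes were undetected, and probe sets with several symbols, some of them above both limits, were not used.

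**Figure D2:**
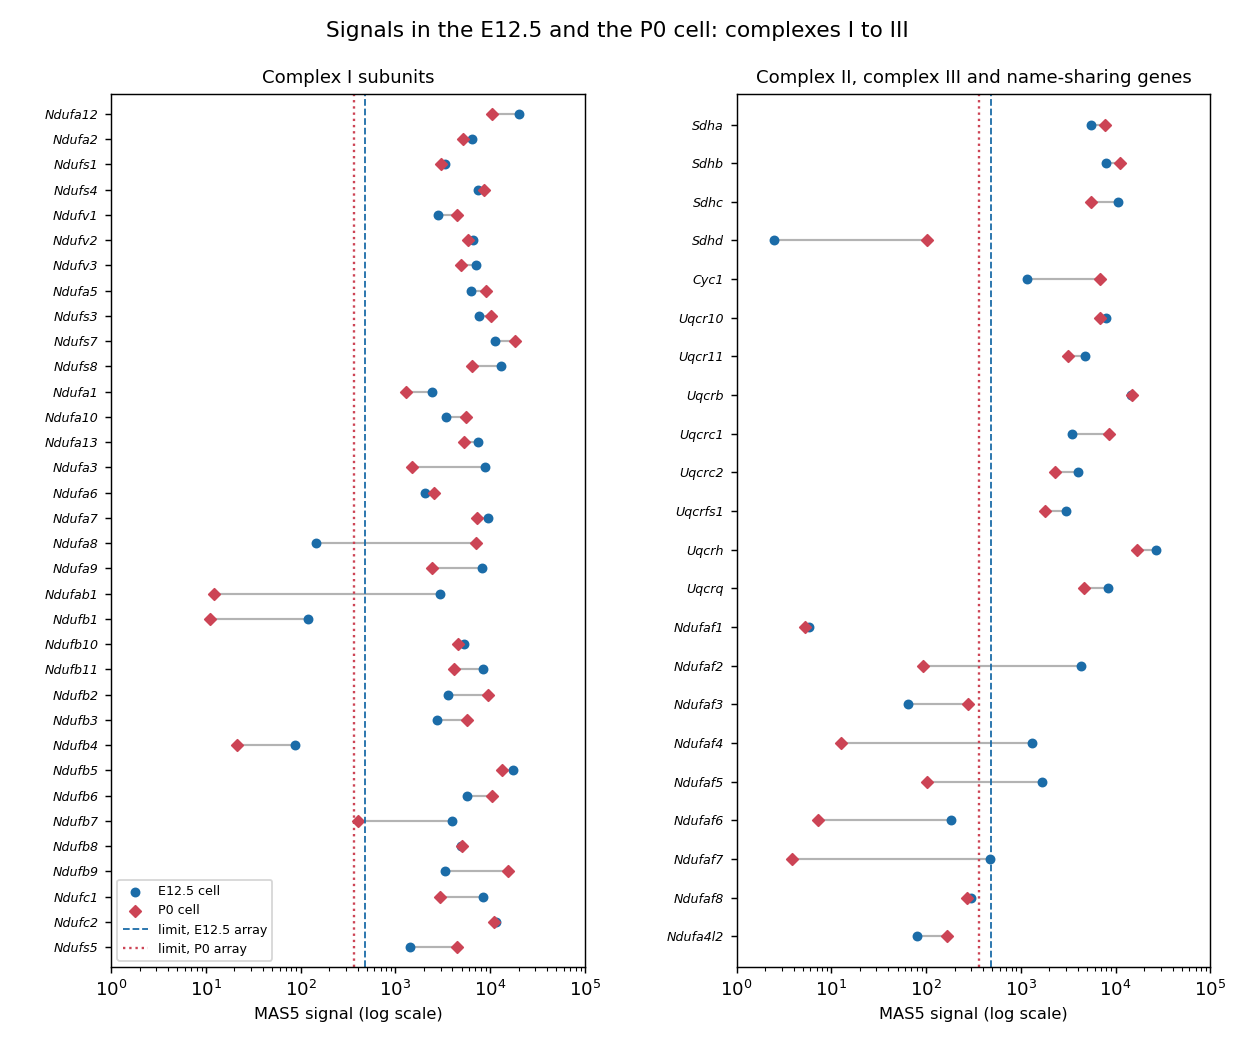
MAS5 signals on a log scale in the embryonic cell (circles) and the newborn cell (diamonds), 1 probe set per gene, with each array's background limit as a vertical line. Most pairs sit close together above the limits; Ndufa8 and Ndufab1 lie on opposite sides of them, in opposite directions, and the Ndufaf genes lie mostly below.

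Complex II, succinate dehydrogenase, belongs to the citrate cycle as well as to the chain. Sdha, the flavoprotein that oxidises succinate, gave 5535 in the embryonic cell and 7814 in the newborn cell. Sdhb, the iron-sulfur subunit, gave 7887 and 11183. Sdhc, a membrane anchor, gave 10702 and 5521. The catalytic pair was 1.41-fold and 1.42-fold higher in the newborn cell and the anchor 1.94-fold higher in the embryonic cell. A second probe set of Sdha, 1882 and 5378, was 2.86-fold higher in the newborn cell. Sdhd, the other anchor, was below the limit in both cells with each of its 2 probe sets, the brighter giving 2.49 and 103. All 3 detected genes were lower in the newborn cell after scaling to the spike-ins, as were 76.8% of all genes above both limits. Their median log2 ratio was then -0.37, against -0.96 over all these genes.

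Complex III, the cytochrome bc1 complex, was above the limit in both cells for all 9 genes. Cyc1, cytochrome c1, which passes electrons to cytochrome c, gave 1169 in the embryonic cell and 6892 in the newborn cell. It was 5.90-fold higher in the newborn cell by its 1 probe set, and the log2 ratio, 2.56, became 1.69 after spike-in scaling, short of 4-fold. Uqcrfs1, the Rieske iron-sulfur protein, gave 2982 and 1818. Cytochrome c1 and the Rieske protein, both catalytic, thus had their higher signals in different cells.

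The core gene Uqcrc1 gave 3433 and 8605, 2.51-fold higher in the newborn cell, while its partner Uqcrc2 gave 4006 and 2302. A second probe set of Uqcrc2 went the other way (1595 and 2138). The small subunit genes were within 2-fold: Uqcrb gave 14593 and 15034, Uqcr10 gave 7911 and 6913, Uqcrh, the hinge protein, gave 27005 and 16944, Uqcrq gave 8272 and 4678, and Uqcr11 gave 4778 and 3145. In all, 6 of 9 genes (66.7%) were lower in the newborn cell, as were 53.4% of all genes above both limits. Under quantile normalisation 6 of 9 were also lower there, against 52.2% of all genes.

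Complex IV, cytochrome c oxidase, was above the limit mostly in its common set of subunits. Several of its subunits exist in a form found in most tissues and a form known from heart and muscle, lung or testis. All 11 genes of the common set, with the supercomplex factor Cox7a2l and Ndufa4 counted here, were above the limit in the embryonic cell and 10 in the newborn cell. Of the 7 tissue isoforms, 1 was above it in the embryonic cell and 0 in the newborn cell. Over all genes these shares were 26.9% and 28.1%, so most genes of any kind were likewise below the limit.

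Cox4i1, the common form of the largest nuclear subunit, gave 22442 in the embryonic cell and 16351 in the newborn cell, while the lung and hypoxia form Cox4i2 was below both limits (116 and 201). Cox6a1 gave 24845 and 23662, and its muscle form Cox6a2 99.6 and 243. Cox7a2 gave 27529 and 19722, and the muscle form Cox7a1 75.0 and 48.8. Each of these pairs had the common gene above the limit in both cells and the muscle or lung gene in neither.

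Cox8a gave 12815 in the embryonic cell and 13556 in the newborn cell, the muscle form Cox8b 112 and 338, and the testis form Cox8c 281 and 93.2. The Cox8b signal in the newborn cell lay close under its limit of 365. The testis form Cox7b2 gave 21.2 and 27.4, and Cox7b was not analysed here. Ndufa4, which binds complex IV, gave 14746 and 9162, and its hypoxia-inducible paralog Ndufa4l2 was below both limits (80.2 and 167). With the lower limits from bacterial control probe sets, 111 and 93.9, some of these isoforms pass: Cox4i2, Cox8b and Cox8c lie above it in the embryonic cell, and Cox4i2, Cox6a2, Cox8b and Ndufa4l2 in the newborn cell.

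Cox6b2 was the exception among the isoforms. This form of the subunit that faces the intermembrane space is best known from testis. It gave 9063 in the embryonic cell and 24.7 in the newborn cell, at least 24.9-fold higher in the embryonic cell, by its 1 probe set. The common form Cox6b1 was nearly level, with 8801 and 10165.

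Cox5a was the common subunit not detected in the newborn cell. It encodes a subunit on the matrix side that is present in all tissues and has no isoform gene. It gave 9002 in the embryonic cell and 35.3 in the newborn cell, at least 24.7-fold higher in the embryonic cell. The other 2 probe sets gave 8132 and 4.40, and 6539 and 12.9. All 3 were thus far above the limit in one cell and far below it in the other, and all 3 were at least 4-fold higher in the embryonic cell. The neighbouring matrix subunit Cox5b gave 20189 and 11496.

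The remaining complex IV genes were Cox6c (14342 in the embryonic cell and 8220 in the newborn cell), Cox7c (1125 and 2524) and Cox7a2l (8020 and 11445). Cox7c was 2.24-fold higher in the newborn cell, and a second probe set, below the limit in the embryonic cell, gave 354 and 697. Another probe set of Cox7a2l had the opposite direction (6967 and 5696). The median log2 ratio of the 10 genes above both limits was -0.26, and 0.15 under quantile normalisation, so no direction is given for complex IV.

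**Figure D3:**
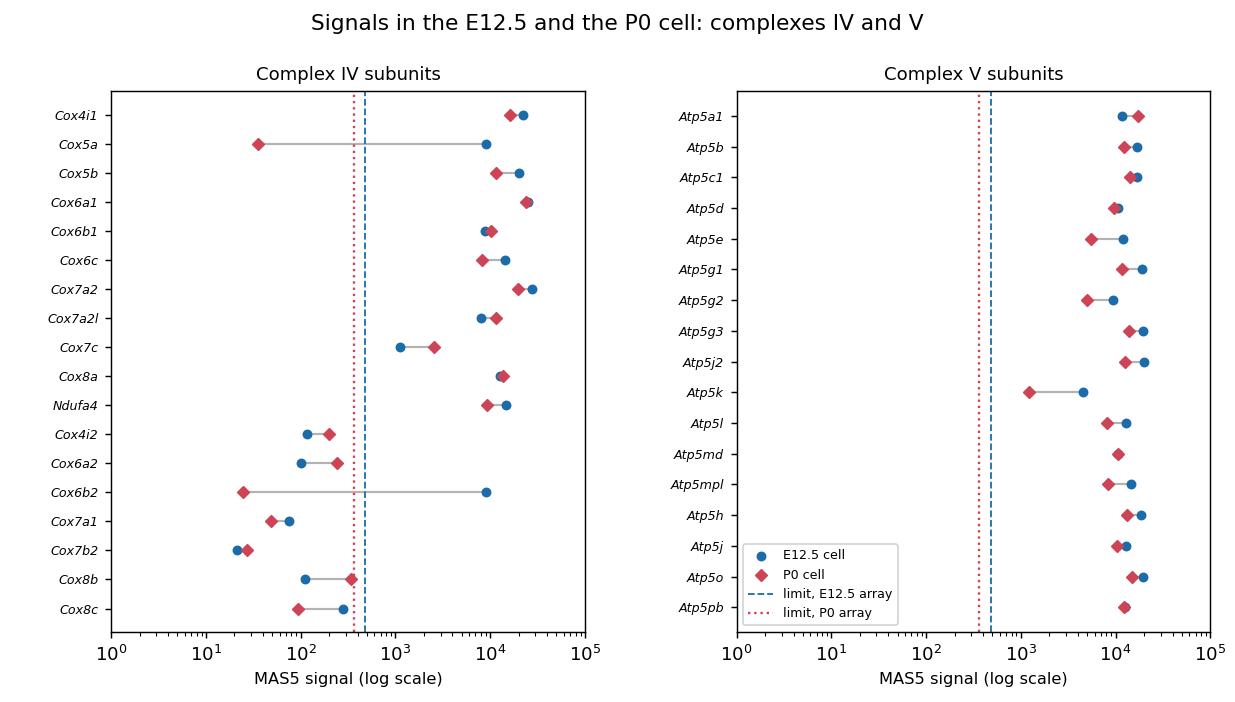
MAS5 signals on a log scale in the embryonic cell (circles) and the newborn cell (diamonds) for complexes IV and V, with each array's limit as a vertical line. Cox5a and Cox6b2 are above the limit only in the embryonic cell, the other 6 tissue isoforms lie below both limits, and all 17 complex V genes lie above both.

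Complex V genes had similar ratios, with an SD over genes of 0.54 log2 units, against 1.18 in complex I and 0.64 in complex IV (0.61, 1.19 and 0.56 under quantile normalisation, where complex IV is the more even). Over all genes above both limits it was 1.33, and over the 1029 of these with a mean log2 signal of 12 or more 0.97. The 16 complex V genes that bright had an SD of 0.41. No complex V gene differed by 4-fold, and 15 of 17 were within 2-fold.

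Of the 17, 15 had the lower signal in the newborn cell (88.2%), as did 53.4% of all genes above both limits. The median log2 ratio was -0.48, which is 0.38 below that of all these genes. Of the 16 complex V genes with a mean log2 signal of 12 or more, 87.5% were lower in the newborn cell, with a median of -0.46. Over the 1029 genes of any kind that bright these values were 59.4% and -0.20. Under quantile normalisation 12 of 17 (70.6%) were lower in the newborn cell, against 52.2% of all genes, with medians of -0.21 and -0.07. After spike-in scaling 17 of 17 were lower there, as were 76.8% of all genes above both limits. That scaling multiplies the whole newborn array by 1 factor.

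In the catalytic F1 head, Atp5b, the beta subunit that makes ATP, gave 16912 in the embryonic cell and 12399 in the newborn cell. Its partner, the alpha subunit gene Atp5a1, gave 11824 and 17362, but the other 2 probe sets gave 11799 and 7793, and 15053 and 6091. Atp5a1 was the member whose probe sets opposed each other by more than 0.5 log2 units on both sides, so no direction is given for it. In the central stalk, Atp5c1, the gamma subunit that turns within the head, gave 16964 and 14357, Atp5d gave 10503 and 9748, and Atp5e gave 12103 and 5540. Atp5e was 2.18-fold higher in the embryonic cell.

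The c subunit, which forms the rotating ring in the membrane, comes from 3 genes whose mature proteins are known to be the same. Atp5g1 gave 19194 in the embryonic cell and 11696 in the newborn cell, Atp5g2 gave 9410 and 5021, and Atp5g3 gave 19287 and 13838. All 3 were above both limits and had the lower signal in the newborn cell, 1.39-fold to 1.87-fold. Their probe sets are taken as annotated.

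The peripheral stalk holds the head still. Its 4 genes, Atp5o (19645 in the embryonic cell and 14950 in the newborn cell), Atp5h (18619 and 13262), Atp5j (13050 and 10452) and Atp5pb (12625 and 12162), had log2 ratios from -0.49 to -0.05. Among the other membrane subunits, which join ATP synthase into dimers and rows, Atp5k stood lowest in the newborn cell. It gave 4533 and 1214, 3.73-fold higher in the embryonic cell, and its other 2 probe sets were 3.26-fold and 3.46-fold higher there. Atp5j2 (19883 and 12477), Atp5l (12884 and 8064) and Atp5mpl (14619 and 8313) were 1.59-fold to 1.76-fold higher in the embryonic cell, and Atp5md was level (10491 and 10736).

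**Figure D4:**
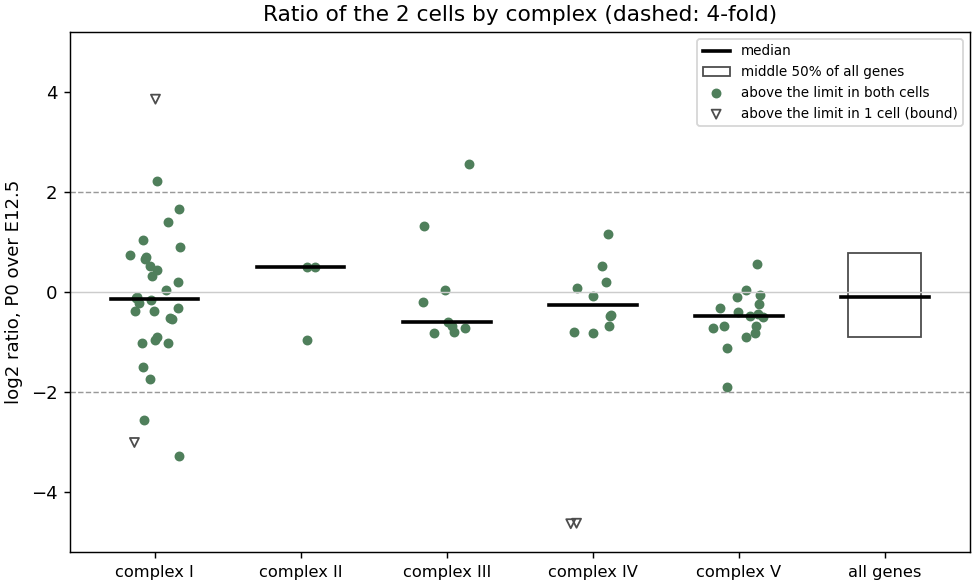
Log2 ratio of the newborn (P0) over the embryonic (E12.5) cell for each gene above the limit in both cells (dots), with the median of each complex (bar) and, at the right, the median and middle 50% of all genes above both limits; open triangles are bounds for genes above the limit in 1 cell. Complex V clusters just below 0, with a median of -0.48, and complex I spreads to both sides of the 4-fold lines.

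Assembly factors help build the complexes and are not part of them. Of the 8 complex I assembly factors named Ndufaf, 3 were above the limit in the embryonic cell and 0 in the newborn cell. The shares of all genes above these limits were 26.9% and 28.1%, so most genes of any kind were likewise below them. Calls at 4-fold numbered 2 with the embryonic cell brighter and 0 with the newborn cell brighter, beside 7.10% and 6.72% of all genes. Counts this small, from 8 genes, give no direction for the group. Ndufaf2, an assembly chaperone and paralog of the subunit gene Ndufa12, gave 4290 and 93.5, at least 11.8-fold higher in the embryonic cell. Ndufaf5, a methyltransferase-like factor, gave 1667 and 103, at least 4.57-fold higher. Ndufaf4 gave 1314 and 12.8, at least 3.60-fold and so short of the call.

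Ndufaf7 lay just under the limit in the embryonic cell (471 and 3.88). With elastase genes left out of the background the limits were 236 and 323, and Ndufaf7, Ndufaf8 and Cox8c then passed in the embryonic cell and Cox8b in the newborn cell. Ndufaf8 (301 and 267), Ndufaf3 (65.1 and 275), Ndufaf6 (181 and 7.19) and Ndufaf1 (5.77 and 5.34) were above it in neither cell.

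Assembly factors outside the name pattern showed both directions. Of 38 measured, 18 were above the limit in the embryonic cell, 16 in the newborn cell and 12 in both. The shares of all genes were 26.9%, 28.1% and 17.1%. Differences of 4-fold or more numbered 5 with the embryonic cell brighter and 2 with the newborn cell brighter. Higher in the embryonic cell were Atpaf1, a chaperone for the F1 beta subunit (2875 and 41.5, at least 7.88-fold), Sco2, a copper carrier for complex IV (2580 and 83.8, at least 7.08-fold), the complex II factors Sdhaf4 (2649 and 460, 5.76-fold) and Sdhaf2 (1984 and 79.4, at least 5.44-fold), and Timmdc1 of complex I (1603 and 4.91, at least 4.40-fold). Higher in the newborn cell were Nubpl, which delivers iron-sulfur clusters to complex I (1053 and 7539, 7.16-fold), and the complex IV factor Coa5 (597 and 3004, 5.03-fold). Over all genes 7.10% and 6.72% were called in these directions.

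Of 20 measured genes for mobile carriers, ubiquinone synthesis and other electron donors, 10 were above the limit in the embryonic cell, 8 in the newborn cell and 7 in both. Over all genes these shares were 26.9%, 28.1% and 17.1%. Differences of 4-fold numbered 3 with the embryonic cell brighter and 1 with the newborn cell brighter, beside 7.10% and 6.72% of all genes. Cycs, cytochrome c itself, gave 12236 and 9004. Coq2, which joins the ring of ubiquinone to its tail, gave 6048 and 26.0 and was at least 16.6-fold higher in the embryonic cell. Coq9, which helps modify the ring (1664 and 6.24, at least 4.56-fold), and Prodh, proline dehydrogenase (1661 and 98.6, at least 4.56-fold), were also higher there. Pdss2, a subunit of the enzyme that makes the tail, was at least 5.78-fold higher in the newborn cell (31.9 and 2795).

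Of 17 regulators of the nuclear and mitochondrial genes for the chain, 9 were above the limit in the embryonic cell, 4 in the newborn cell and 3 in both, beside 26.9%, 28.1% and 17.1% of all genes, so that the last 2 counts lie near the background. Differences of 4-fold numbered 3 with the embryonic cell brighter and 1 with the newborn cell brighter, beside 7.10% and 6.72% of all genes. Gabpb1, partner of the ETS factor GABPA, gave 4248 and 24.8, at least 11.6-fold higher in the embryonic cell. The coactivator Pprc1 (2363 and 48.6, at least 6.48-fold) and the mitochondrial transcription and ribosomal RNA methylation factor Tfb1m (2026 and 20.8, at least 5.56-fold) were also higher there. Polrmt, the mitochondrial RNA polymerase, was at least 5.06-fold higher in the newborn cell (204 and 2447). Gabpa (1221 and 8.28) was at least 3.35-fold higher in the embryonic cell, a lower bound that fell short of the call. Above both limits and short of 4-fold were Tfam, which packages mitochondrial DNA (5617 and 1912), and Yy1 (4809 and 10813). Nrf1, the gene of the motif's factor, was above the limit in neither cell (358 and 146), though its 358 exceeds the limit of 236 taken without elastase genes. Atpif1, which inhibits ATP synthase when it runs backwards, gave 16856 and 21739. The mitochondrially encoded subunits had no probe set with a single symbol here and were not analysed.

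Probe sets of the same gene gave a measure of array error. Of the 91 genes, 40 have 1 probe set and the others up to 6. Among the 35 members with several probe sets above both limits, the log2 ratio varied within a gene with a pooled SD of 0.33, against 0.74 over 884 such genes of any kind. These sets were not matched for brightness. A mean log2 signal of 12 or more was held by 55 of the 69 members above both limits and 1029 of 3117 genes. Of 40 members with several probe sets above the limit in at least 1 cell, 34 kept within 1 log2 unit and 5 had probe sets of opposite sign. These were Atp5a1, Cox6a1, Cox7a2l, Ndufc2 and Uqcrc2. Such probe sets read the same amplified cDNA, so this error holds no variation between cells and no loss of a whole transcript. In all, 45 of the 180 probe sets were below the limit in both cells, and 26 of those belong to a gene that another probe set placed above it.

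**Figure D5:**
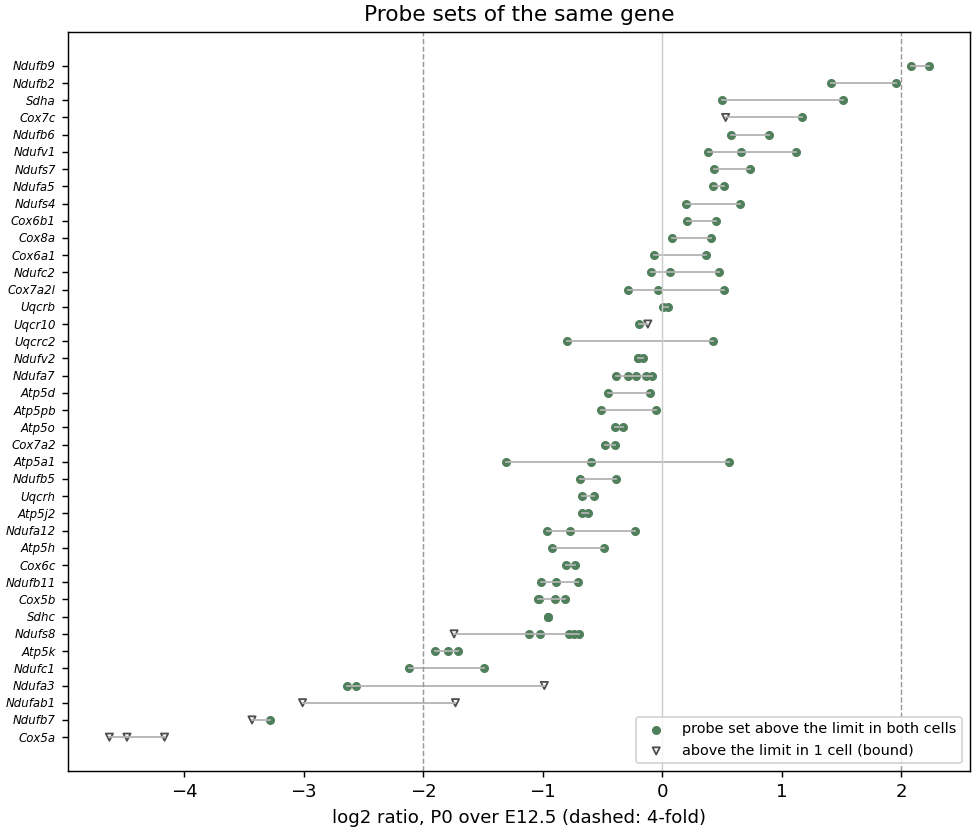
Log2 ratio of the newborn (P0) over the embryonic (E12.5) cell for every probe set above the limit in at least 1 cell, for the 40 members with 2 or more such probe sets, ordered by their mean. The 3 probe sets of Cox5a stand together at the lower left, below -4, and those of Atp5a1 lie on both sides of 0.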

How the data were processed

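For each cell the authors deposited a MAS5 signal, an intensity on a linear scale, for every probe set, per the labels. Its software version is not given in the sources used here. The mean without the outer 2% at each end was 500.0 in both arrays, so each was scaled on its own. Without replicate arrays or detection calls, no interval or p-value is given. Gene symbols are those of the platform annotation: 34958 probe sets had 1, 932 several and 9211 none.

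Each array's limit was set at the 99th percentile over 221 background probe sets (184 genes). Signals under it were raised to it before a log2 ratio was taken, and 4-fold was called where the brighter cell exceeded its limit. Named were the called members, isoform groups, catalytic subunits, members above neither limit and members whose probe sets disagreed; other members were added after their values were seen. Of the other lists, the called genes are named, and Cycs, Gabpa, Tfam, Yy1, Nrf1 and Atpif1 were also chosen after their values were seen. The members and lists were chosen with earlier results of these data known. Scaling, limits, floors, folds and probe set choices were varied. The scoring, in Python 3.11.15 with pandas 2.3.3 and numpy 2.4.6, was tested on simulated data.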

Additional observations from a re-analysis of the deposited data

Results flagged for a closer look

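Of the 10 probe sets left out because they carry several gene symbols, 4 were above the limit in both cells, 6 in the embryonic cell and 4 in the newborn cell. Those 4 gave 1152 to 3807 in the embryonic array and 3018 to 6699 in the newborn array. They were picked out as signal that the comparisons do not use. No gene is named from them.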

How the results depend on the processing

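Counts above the limit (75, 70 and 69 of 91 in the embryonic cell, the newborn cell and both) stayed within 1.5 times as shares of what was counted under every alternative limit, scaling and probe set choice run; with each of the 180 probe sets counted the shares were 73.3%, 68.3% and 66.7%, from larger counts (132 of 180 in the embryonic cell, 120 in both). Members at least 4-fold higher in the embryonic and the newborn cell, 7 (7.69%) and 3 (3.30%), became 11 (12.1%) and 1 (1.10%) with spike-in scaling, 12 (13.2%) and 5 (5.49%) without a filter, and 14 (15.4%) and 8 (8.79%) at 2-fold. At 8-fold they were 5 and 1 (1.10%). The members' median log2 ratio, -0.32, became -1.19 with spike-in scaling, while that of all genes above both limits went from -0.10 to -0.96. Leaving out the elastase genes, a choice made after seeing the data because 1 was bright in the embryonic cell, gave limits of 236 and 323 and 8 and 3 calls; over all genes 55.1% of calls were then higher in the newborn cell, against 48.6%. Calls over all genes numbered 1291 and 1222, 2080 and 457 with spike-in scaling, 1922 and 1925 with the limit at the 95th percentile, 2004 and 2006 with that from bacterial controls, 678 and 553 with the mean over probe sets, 4115 and 3924 without a filter, 2255 and 2169 at 2-fold, and 536 and 393 at 8-fold. Of the 10 called members, Cyc1 (1.69) and Ndufb9 (1.36) lost the call with spike-in scaling, and Ndufab1 (-0.41) and Ndufb9 (0.29) with the mean over probe sets. The other 7 kept it in all 9 settings that gave them a value. The 2-fold and 8-fold thresholds were not among those settings. Cox6b2, Ndufa8, Ndufaf2 and Ndufaf5 have 1 probe set each, so the choice of probe sets could not alter their calls. The cause of the changes given here was not tested. No paired analysis was possible because each age has 1 cell.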
